A study of Mus musculus with 6 samples.

Results

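The response of 9 microRNAs (miRNAs) tied to leukocytes or to inflammatory induction was measured in the retina of mice with experimental autoimmune uveoretinitis (EAU). They are mmu-miR-155, mmu-miR-146a, mmu-miR-146b, mmu-miR-147, mmu-miR-223, mmu-miR-150, mmu-miR-342-3p, mmu-miR-342-5p and mmu-miR-132, written below without the mouse prefix. Each was taken as the capture probe whose name on the array, read as mouse miRNA names, equals the member's name, which gave 9 of 597 mouse miRNA probes and 36 of 2388 mouse spots per array. MiR-21 and miR-142, which belong to the same functional class, were not members.

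EAU is a T cell-driven inflammation of the retina that serves as a model of human uveitis. The samples were 3 of retinal cells from B10.RIII mice developing EAU, taken on day 14, and 3 of retinal cells from naive B10.RIII mice. All mice were 8 weeks old, per the labels. The samples were independently harvested, but the labels do not say how many mice each holds, how the disease was induced, or how retinal cells were prepared, so p-values measure the spread between these harvests. Total RNA (800 ng) labelled with the dye Hy3 was hybridised to a miRCURY LNA array together with a Hy5-labelled pool of equal amounts of all samples, in the same dye orientation on all 6 arrays.

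MiRNAs are short RNAs that pair with messenger RNAs, mainly through a stretch near their 5′ end called the seed, and lower their stability or translation. MiR-155 is made from a host transcript that activated T cells, B cells and macrophages induce, while miR-146a is induced through NF-κB. Both miR-146a and miR-146b target Irak1 and Traf6, which transmit Toll-like receptor signals. MiR-147 is induced in mouse macrophages by Toll-like receptor ligands. MiR-223 marks neutrophils and other myeloid cells, miR-150 mature lymphocytes, and miR-342 is present in many blood cells, whereas miR-132 is induced by neuronal activity and also by inflammatory signals.

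The mature sequences are shown to make clear which members could be told apart by a capture probe. RefSeq (GRCm38.p6) gave a mature sequence for 7 of the 9 members, printed 5′ to 3′ with the seed, bases 2 to 8, in capitals.
miR-155: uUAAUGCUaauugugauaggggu
miR-146a: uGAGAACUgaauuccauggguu
miR-146b: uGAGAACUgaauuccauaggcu
miR-223: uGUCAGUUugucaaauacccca
miR-342-3p: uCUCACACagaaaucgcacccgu
miR-342-5p: aGGGGUGCuaucugugauugag
miR-132: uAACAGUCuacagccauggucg
The 7 sequences hold 6 distinct seeds, and miR-146a and miR-146b share one. Counted from the 5′ end, miR-146b differs from miR-146a by G18A and U21C, and 20 of their 22 bases are identical. Cross-hybridisation between their probes was not tested. The 2 arms of miR-342 have different seeds and come from 1 hairpin.

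The genes lie apart in GRCm38.p6. Mir155 (mature miR-155 at chr16:84714143-84714165, plus strand) lies within the long non-coding RNA gene Mir155hg. Mir342 lies within the protein-coding gene Evl, with miR-342-5p at chr12:108658638-108658659 and miR-342-3p at chr12:108658680-108658702, both on the plus strand. Mir147 lies within the protein-coding gene AA467197 on chromosome 2, and Mir146b (miR-146b at chr19:46342790-46342811, plus strand) and Mir223 (miR-223 at chrX:96242884-96242905, plus strand) within the annotated long non-coding RNA genes Gm36493 and F630028O10Rik. MiR-146a lies at chr11:43374435-43374456 on the minus strand and miR-132 at chr11:75173723-75173744 on the plus strand, next to Mir212.

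The arrays differed in brightness. The median sample-channel signal ranged from 56.2 to 94.8 intensity units and was highest on EAU replicate 2, and the median reference signal ranged from 33.9 to 38.1. All 9 members had their highest raw sample signal on EAU replicate 2, so raw signals are given here together with a ratio to the blank level of the same array. The blank level lies 3 median absolute deviations above the median of the blank and negative-control spots, and a probe counted as above the blanks where at least 50% of its spots exceeded it. The level could not be replaced by the scanner software's own background flag, which was set for every mouse spot. EAU and naive arrays were scanned on different days, and the effect of the day cannot be told apart from that of the disease in any result. In these bulk samples, more cells of a type and more of an miRNA per cell cannot be told apart either.

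Only miR-223 and miR-150 exceeded the blank level on all 6 arrays, and miR-155, miR-147 and miR-132 exceeded it on none. Between these lay miR-146b and miR-342-5p (2 of 3 EAU arrays and 0 of 3 naive arrays each), miR-342-3p (2 of 3 EAU and 1 of 3 naive) and miR-146a (1 of 3 EAU and 0 of 3 naive). Of all 597 mouse probes, 192 (32.2%) exceeded the blank level on every array and 224 (37.5%) on no array. The number of members above the blanks was 5, 6 and 2 on EAU replicates 1 to 3 and 2, 2 and 3 on naive replicates 1 to 3. The means were 4.33 ± 2.08 in EAU and 2.33 ± 0.577 in naive (SD, n = 3 each), and the groups overlapped. With the blank level at 2 median absolute deviations the counts were 6, 8 and 5 in EAU and 3 on each naive array, without overlap. All mouse probes were not counted at that level, so whether this separation is particular to the members was not tested. At 3 median absolute deviations, 291, 312 and 249 mouse probes were above the blanks on EAU replicates 1 to 3. On naive replicates 1 to 3 they were 250, 291 and 275. EAU replicate 3, with 2 members above the blanks, was also the array with the fewest mouse probes above them, 249 of a range that reached 312.

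**Figure D1:**
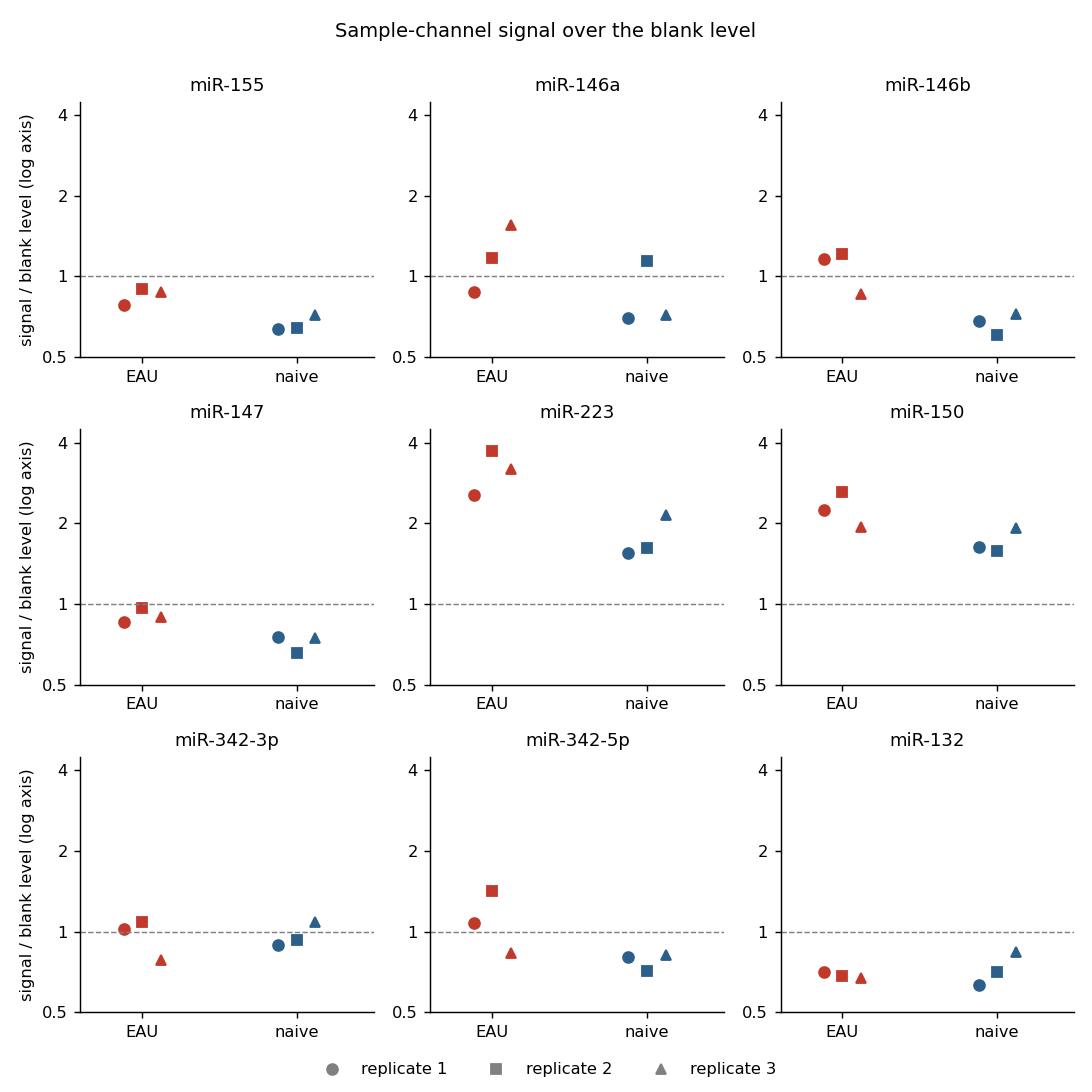
Raw sample-channel signal of each member divided by the blank level of its array (log axis), with 1 point per array, EAU left of naive, and a dashed line at the blank level. MiR-223 and miR-150 lie above the line on all 6 arrays, miR-155, miR-147 and miR-132 below it on all 6, and the EAU points of miR-223 (2.55 to 3.74) lie above its naive points (1.55 to 2.16).

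The main comparison asked whether any member differed between EAU and naive retinal cells in the log2 ratio of sample to pooled reference, log2(Hy3/Hy5), after background correction and loess normalization. In limma, 0 of 9 members passed an adjusted p of 0.05, and 2 had an unadjusted p under that value, miR-146b and miR-155. Over all tested mouse probes 77 of 595 passed (12.9%), 25 of them higher in EAU (4.20%) and 52 lower (8.74%). The median difference, EAU minus naive, was 0.05 over the 9 members and -0.01 over all 595 probes, and 6 of the 9 members were above 0, against 42.0% of all tested probes. A constant of 50 intensity units was added to both channels before the ratio was taken, which by construction pulls the log2 ratio of a dim probe towards 0.

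**Figure D2:**
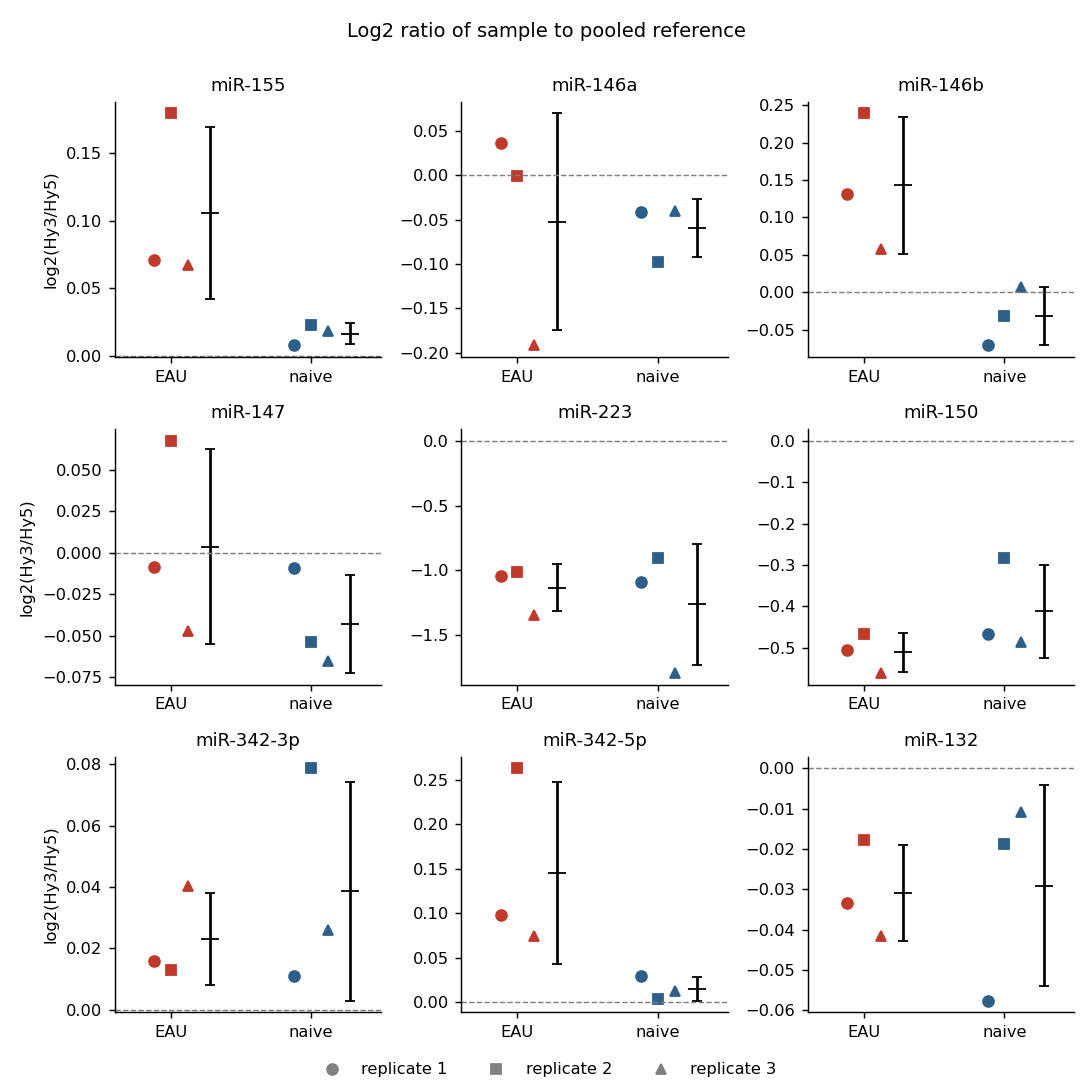
Log2 ratio of sample (Hy3) to pooled reference (Hy5) of each member on each array, EAU left of naive, with group mean and SD (n = 3) drawn beside the points. The vertical scale differs between members, and the EAU points lie wholly above the naive points only for miR-155, miR-146b and miR-342-5p.

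**Figure D3:**
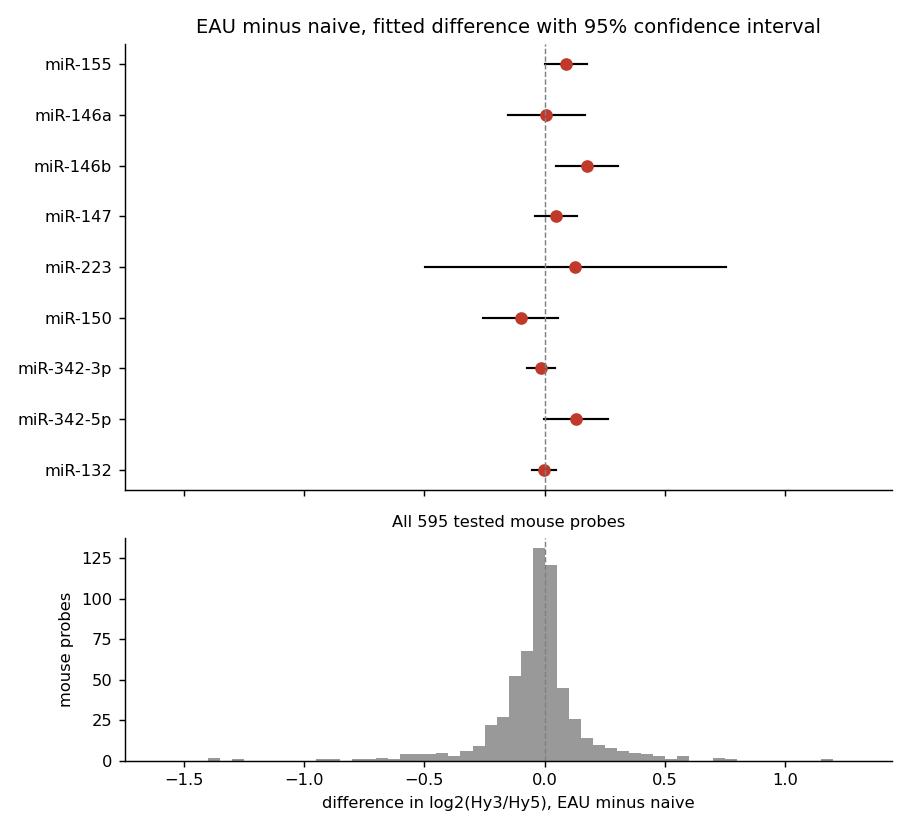
Upper panel, fitted difference in log2(Hy3/Hy5), EAU minus naive, for each member with its 95% confidence interval from limma; lower panel, number of the 595 tested mouse probes at each difference on the same axis. The member differences run from -0.10 for miR-150 to 0.18 for miR-146b, between the percentiles 24.9 and 91.4 of all tested probes.

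Of the members linked to Toll-like receptor signalling, miR-146b had the largest fitted difference. Its raw sample signal was 84.5, 130 and 56.1 on EAU replicates 1 to 3, against 61.0, 55.6 and 47.5 on naive replicates 1 to 3. Relative to the blank level this was 1.16, 1.21 and 0.857 in EAU and 0.683, 0.603 and 0.723 in naive. The groups did not overlap on this scale, although only EAU replicates 1 and 2 rose above the blanks. In log2(Hy3/Hy5) miR-146b was at 0.13, 0.24 and 0.06 in EAU and at -0.07, -0.03 and 0.01 in naive. The 3 EAU arrays lay above the 3 naive arrays here too. The difference was 0.18 (SE 0.05, 95% confidence interval 0.05 to 0.30), and it did not pass over all probes (limma, adjusted p = 0.0776). The exact two-sided permutation test over the 6 arrays gave p = 0.1, the smallest that 3 against 3 arrays can give.

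The call of miR-146b depended on how its dim signal was treated. It passed in 5 of 13 other settings, in each with a higher level in EAU. With no constant added the difference was 1.32 (limma, adjusted p = 0.0214), with a constant of 16 it was 0.41 (adjusted p = 0.0468), and with the scanner software's processed signals 1.31 (adjusted p = 0.0116). These settings called 2.69%, 4.87% and 7.06% of all mouse probes higher in EAU. In the sample channel alone it was 0.44 after quantile normalization (adjusted p = 0.0452) and 0.31 after loess and Aquantile normalization (adjusted p = 0.0564), where 5.21% and 4.87% of mouse probes were called higher. From the authors' deposited table of linear Hy3/Hy5 ratios, whose normalization is unknown, miR-146b was at 1.61, 1.92 and 1.22 in EAU and 0.823, 0.801 and 0.867 in naive, a log2 difference of 0.91 in limma (adjusted p = 0.00632; 7.14% of probes called higher). Because all naive arrays were under the blanks, its fold in the sample channel is given as a lower bound, 1.05-fold higher in EAU. For this bound each naive array was given its dimmest level over the blanks, or the probe's level where that was higher, and the EAU mean was set against the mean of these. The EAU mean included EAU replicate 3, which was itself under the blanks, and the difference in that channel did not pass. The bound is thus not a guaranteed minimum, and a dye bias that varied from array to array would enter it. Without the constant, the call was kept without EAU replicate 1 (adjusted p = 0.0491) or EAU replicate 3 (0.00315), and was lost without EAU replicate 2 (0.0788) or naive replicate 1 (0.116), 2 (0.0918) or 3 (0.0605). The first 2 of these fits called 5.56% and 4.73% of mouse probes higher.

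MiR-146a, which shares the seed of miR-146b, gave overlapping groups in the same fit. Its raw sample signal was 63.8, 126 and 102 in EAU and 62.2, 105 and 47.0 in naive. The log2 ratio was 0.04, -0.00098 and -0.19 in EAU and -0.04, -0.10 and -0.04 in naive, so the groups overlapped. The difference was 0.01 (SE 0.06, 95% confidence interval -0.15 to 0.17; limma, adjusted p = 0.945). The median SD between the 4 spots of an array was 0.45 on the log2 scale for miR-146a, against 0.10 for the 9 members together.

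The highest values lay at 1 printed position. The first spot of miR-146a read 225 on EAU replicate 2, 252 on EAU replicate 3 and 256 on naive replicate 2, while the mean of the other 3 spots was 93.3, 51.9 and 55.0 on the same arrays. The software marked none of these spots as an outlier. EAU replicate 2 was the only array with miR-146a above the blanks, and there 2 of the 4 spots exceeded the blank level of 107. They were the first spot, at 225, and a spot at 114, while the remaining spots read 94.8 and 70.9. In an alternative chosen after seeing the spots, with the first spot left out on all arrays, miR-146a was at 0.04, 0.05 and 0.00 in EAU and at -0.06, -0.11 and -0.06 in naive. The difference was then 0.11 (SE 0.02; limma, adjusted p = 0.0455), higher in EAU, as 4.37% of mouse probes were, and with the median over the 4 spots it was 0.07 (adjusted p = 0.130). The call made without the first spot was lost on leaving out each of the 6 arrays in turn (adjusted p between 0.0750 and 0.116). In the sample channel alone with all spots, miR-146a differed by 0.18 (adjusted p = 0.0626).

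**Figure D4:**
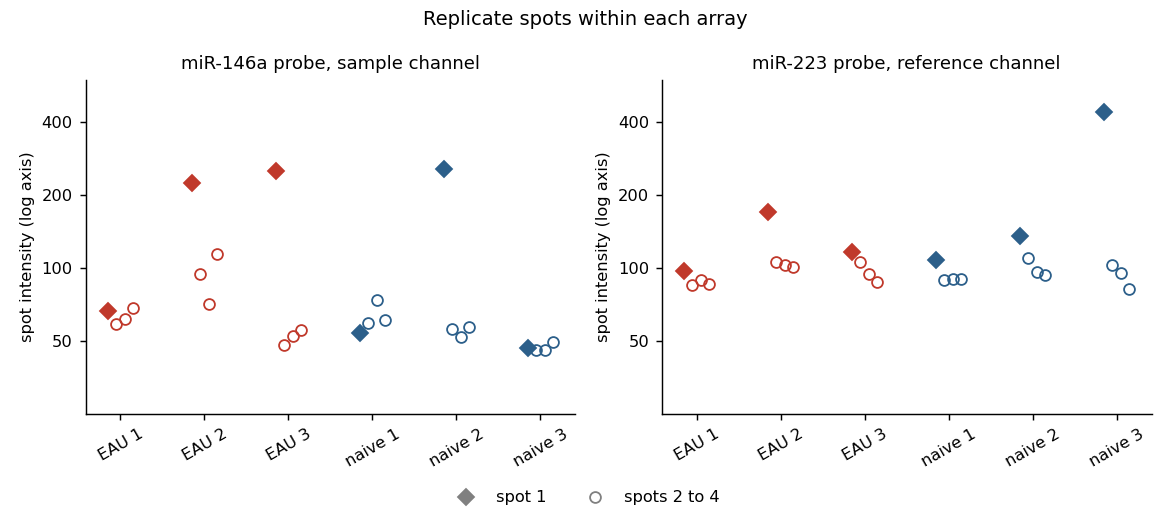
Intensity of each of the 4 printed spots (log axis) of the miR-146a probe in the sample channel and of the miR-223 probe in the reference channel, by array, with EAU arrays left of naive arrays and the first spot as a filled diamond. The first miR-146a spot lies at 225, 252 and 256 on 3 arrays and near the other spots on the remaining ones, and the first miR-223 reference spot lies at 440 on naive replicate 3.

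MiR-147, which Toll-like receptor ligands induce in macrophages, stayed under the blanks on all 6 arrays. Its raw sample signal was 62.4, 104 and 58.6 in EAU and 67.5, 60.2 and 49.1 in naive. Relative to the blank level it reached 0.858 to 0.965 in EAU and 0.654 to 0.756 in naive, without overlap. The difference in log2(Hy3/Hy5) was 0.05 (SE 0.04, 95% confidence interval -0.04 to 0.14; limma, adjusted p = 0.390), with overlapping groups, and 0.01 without EAU replicate 2. Over 13 other settings with all 6 arrays it ran from 0.03 to 0.58 and passed in 0 of them. The highest value came from the deposited table (limma, adjusted p = 0.0523).

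MiR-155 stayed under the blanks on all 6 arrays. The raw sample signal was 56.9, 96.2 and 57.0 in EAU and 56.7, 59.1 and 47.0 in naive, or 0.782 to 0.896 of the blank level in EAU and 0.635 to 0.715 in naive. Its log2 ratio was 0.07, 0.18 and 0.07 in EAU, each above the naive values of 0.01, 0.02 and 0.02. The difference of 0.09 (SE 0.03, 95% confidence interval 0.0017 to 0.18) did not pass (limma, adjusted p = 0.142), and the exact two-sided permutation p was 0.1. Without EAU replicate 2 the difference was 0.05. With no constant added it was 0.94 (adjusted p = 0.0524). Under that setting it passed without EAU replicate 1 (adjusted p = 0.0491) or EAU replicate 3 (0.0427) and did not pass on leaving out any other array (0.0942 to 0.169). Because all 6 arrays were under the blanks, no fold is given for miR-155.

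The array also carries a probe designed for human miR-155. It was above the blanks on all 6 arrays, at 168, 361 and 139 in EAU and 141.6, 222.5 and 132.4 in naive. Its log2 difference was 0.13 (SE 0.14; limma, adjusted p = 0.546), with EAU replicate 2 at 0.26 and the other 2 EAU arrays at -0.17 and -0.26, against -0.18, -0.17 and -0.21 in naive. What the human probe captured in mouse RNA was not tested. Of 7 probes of other species that carry the number of a member, 0 passed when all named probes were tested together, where 113 of 1743 probes did (6.48%).

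MiR-223, the myeloid miRNA, had more sample signal on each EAU array than on each naive array, but its ratio to the reference pool did not separate the groups. Its raw sample signal was 185, 402 and 209 in EAU, against 138, 149 and 142 in naive. The EAU mean was 265 ± 119 and the naive mean 143 ± 5.47 (SD, n = 3 each), without overlap. Relative to the blank level, miR-223 was at 2.55, 3.74 and 3.20 in EAU and at 1.55, 1.62 and 2.16 in naive. In log2(Hy3/Hy5) the groups overlapped, with -1.05, -1.02 and -1.35 in EAU and -1.09, -0.91 and -1.79 in naive. The difference was 0.13 with a wide interval (SE 0.25, 95% confidence interval -0.50 to 0.75; limma, adjusted p = 0.751).

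The reference signal of miR-223, measured from the same pool on every array, was 89.5, 120 and 101 on EAU arrays and 94.4, 109 and 180 on naive arrays. On naive replicate 3, the first spot read 440 in the reference channel. Without naive replicate 3 the difference turned to -0.14 (adjusted p = 0.510), and without the first printed spot on any array, an alternative chosen after seeing the spots, it was 0.04 (adjusted p = 0.892). With median centring in place of loess the difference was 0.80 (SE 0.15; limma, adjusted p = 0.0629; 0.168% of mouse probes called higher in EAU). Left without normalization it was 0.87 (adjusted p = 0.0679; 3.53% called higher). In the sample channel alone it was 0.46 after loess and Aquantile normalization (adjusted p = 0.183) and 0.69 after quantile normalization (adjusted p = 0.164). MiR-223 passed the threshold in none of these settings.

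MiR-150, the lymphocyte miRNA, was above the blanks on every array in both channels. Its raw sample signal was 163, 282 and 127 in EAU and 145, 145 and 127 in naive. Its ratio to the blank level was 2.24, 2.63 and 1.95 in EAU and 1.63, 1.57 and 1.93 in naive, without overlap but with EAU replicate 3 close to naive replicate 3. In log2(Hy3/Hy5) it was at -0.51, -0.47 and -0.56 in EAU and -0.47, -0.28 and -0.48 in naive, with overlap. The difference was -0.10 (SE 0.06, 95% confidence interval -0.25 to 0.06; limma, adjusted p = 0.294), and -0.04 without naive replicate 2. Its sign was not stable: the difference was 0.31 with median centring, 0.38 with no normalization, and 0.26 and 0.14 in the sample channel alone after quantile and after loess and Aquantile normalization, none of which passed.

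The 2 arms of the miR-342 hairpin gave different values. MiR-342-5p, reported in mouse macrophages among other cells, had a raw sample signal of 78.0, 152 and 54.3 in EAU and 71.8, 65.4 and 53.7 in naive. Its log2 ratio was 0.10, 0.26 and 0.07 in EAU and 0.03, 0.00 and 0.01 in naive, without overlap. The difference was 0.13 (SE 0.05, 95% confidence interval -0.0034 to 0.26; limma, adjusted p = 0.152), with the largest value on EAU replicate 2. With no constant added it was 0.91 and passed (adjusted p = 0.0145), a call that was kept without EAU replicate 1 (0.0335) or EAU replicate 3 (0.0133) and lost without any 1 of the other 4 arrays. Without EAU replicate 2 the reported difference was 0.07. In the sample channel alone, after loess and Aquantile normalization, it was 0.19 with an interval from -0.04 to 0.41 (adjusted p = 0.310), and the groups overlapped there.

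MiR-342-3p had overlapping groups. Its raw sample signal was 74.7, 117 and 51.4 in EAU and 79.5, 85.8 and 71.2 in naive, and its log2 ratio was 0.02, 0.01 and 0.04 in EAU and 0.01, 0.08 and 0.03 in naive. The difference was -0.02 (SE 0.02, 95% confidence interval -0.08 to 0.04; limma, adjusted p = 0.682). Whether the 2 arms differed from each other in their response was not tested.

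MiR-132 was under the blanks on all 6 arrays, at 51.3, 73.3 and 44.0 in EAU and 56.2, 65.3 and 55.3 in naive in raw sample signal. Its difference was -0.0018 (SE 0.02, 95% confidence interval -0.05 to 0.05; limma, adjusted p = 0.960). MiR-212, which lies next to miR-132 in the genome, was above the blanks on all 6 arrays and differed by 0.02 (SE 0.03; adjusted p = 0.693). It and the star strands miR-146b* (0.01) and miR-150* (-0.01) were the 3 of 8 listed companion miRNAs with a mouse probe, and none passed.

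The number of members separated by group differed between scales. In log2(Hy3/Hy5), 3 of 9 members had all EAU arrays above all naive arrays, against 17.1% of all mouse probes with a value on every array. In the ratio of raw sample signal to the blank level, 6 of 9 members did (miR-155, miR-146b, miR-147, miR-223, miR-150 and miR-342-5p), against 15.2% of all mouse probes. In the sample channel after loess and Aquantile normalization the count was again 6 of 9, now with miR-146a in place of miR-342-5p, against 15.5%. From the authors' deposited table, 2 of 8 members were separated in this way, miR-146b and miR-147, against 16.4%. No member counted here had all EAU arrays below all naive arrays on any of these scales. The ninth member, miR-342-5p, was left out of the last count because its ratio in the authors' deposited table was far above that of the scanner values on every array. In that table it was lower in EAU, at 121, 113 and 79.4, against 215, 300.4 and 154 in naive, opposite to its direction in the scanner values. The members were picked with results of these data known, so these counts describe them and are not a test. The median ratio of mouse probes to the blank level was itself 0.985 ± 0.083 in EAU and 0.887 ± 0.043 in naive (SD, n = 3 each), and its part in the second count was not tested.

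**Figure D5:**
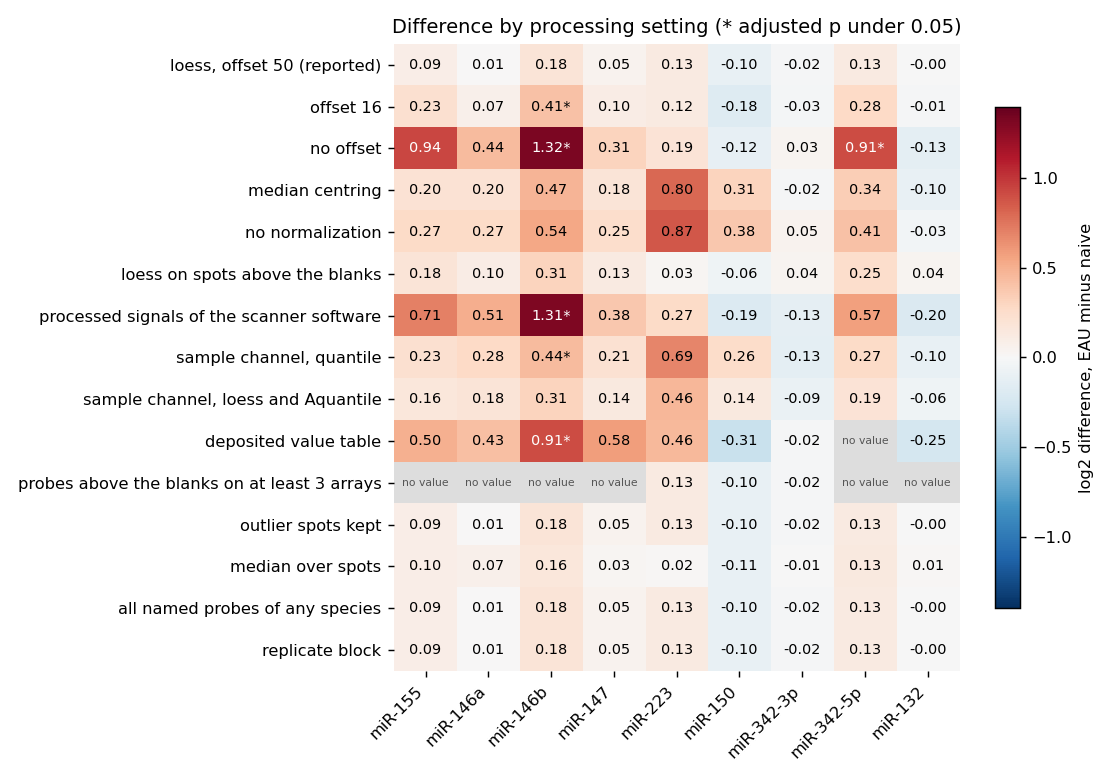
Difference, EAU minus naive, of each member (columns) under each processing setting (rows, all 6 arrays in each), on the log2 scale, with the colour giving sign and size, an asterisk marking an adjusted p under 0.05 in limma, and grey where a setting gives no value. MiR-146b carries 5 asterisks and miR-342-5p 1, and among the settings drawn only miR-150, miR-342-3p and miR-132 have differences of both signs.

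For comparison, 17 other miRNAs linked to leukocytes or inflammation were tested in the same fit. Of these, 2 rose, 3 fell and 12 did not pass, with a median difference of -0.16. MiR-21, induced by inflammation in many cell types, rose by 1.16 (SE 0.20; limma, adjusted p = 0.0266), and miR-142-3p, a marker of the blood lineage, by 0.56 (SE 0.08; adjusted p = 0.0166). The other blood-lineage marker, miR-142-5p, differed by 0.47 and did not pass (SE 0.12; limma, adjusted p = 0.0582). MiR-9 (-0.35), miR-31 (-0.17) and miR-326 (-0.17) fell, with adjusted p-values of 0.0211, 0.0205 and 0.0477. In the sample channel alone, after loess and Aquantile normalization, these falls did not pass. The differences there were -0.48, -0.25 and -0.05 (limma, adjusted p = 0.0597, 0.102 and 0.762). MiR-21 and miR-142-3p passed in that channel too (adjusted p = 0.0153 and 0.0307). Other listed miRNAs passed there but not in the log2 ratio. MiR-142-5p was higher in EAU (0.77; limma, adjusted p = 0.0157). MiR-181a (-1.07), miR-29a (-0.49) and miR-29b (-0.47) were lower (limma, adjusted p = 0.00792, 0.0161 and 0.0153). In the log2 ratio, the differences of the 9 members, -0.10 to 0.18, were smaller than those of miR-21 and miR-142-3p. These 2 miRNAs had been under the blanks on all naive arrays and above them on all EAU arrays. A test of that contrast between probes was not made. Markers of resident cells were checked as well: 1 of 3 photoreceptor, 1 of 2 neuronal (miR-9, also counted above) and 2 of 2 pigment epithelium miRNAs fell, and 0 of 2 endothelial ones passed. The photoreceptor miRNAs miR-183, miR-96 and miR-182 differed by -1.38, -0.91 and -1.28 without overlap, and in the sample channel alone by -1.89, -1.42 and -1.80, where all 3 passed (adjusted p = 0.00106, 0.0153 and 0.0205). MiR-124, a neuronal miRNA, differed by -2.07 in that channel (adjusted p = 0.0213). In the log2 ratio it differed by -0.69 (SE 0.67; limma, adjusted p = 0.520), with overlapping groups. MiR-124 had a value on only 2 EAU arrays. Both markers of smooth muscle and pericytes fell in the log2 ratio. In the sample channel alone miR-145 passed (-0.55; limma, adjusted p = 0.0157) and miR-143 did not (-0.21; adjusted p = 0.144). Of the 3 erythrocyte markers, miR-486 fell in the log2 ratio (-0.23) but differed by 0.05 in the sample channel (adjusted p = 0.918), where miR-451 and miR-144 were also above 0. Their part in the values of the members was not tested.

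Among the members above the blanks on at least 3 arrays, the probes with the most similar pattern over the 6 arrays, by Pearson's r among 591 mouse probes, were miR-582-3p (0.90), miR-153 (0.90) and miR-186* (0.88) for miR-223. They were miR-9* (0.96), miR-677 (0.96) and miR-294 (0.95) for miR-150, and miR-878-3p (0.95), miR-1274a (0.91) and miR-542-3p (0.87) for miR-342-3p. The 95th percentile of r over the 591 probes was 0.55 for miR-223, 0.87 for miR-150 and 0.70 for miR-342-3p. All of these correlations share the same 6 arrays and the same reference pool, and are given as descriptions.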

How the data were processed

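MiRNAs were measured in 3 EAU and 3 naive retinal samples on 2-colour arrays. Scanner files deposited by the authors give each spot's intensity and local background. Per the file headers they were written by Agilent Feature Extraction, version 9.1.3.1. A deposited value table of 1972 rows holds a linear ratio per probe, and nothing in the sources used here gives its normalization or centring. Set against the scanner values, it follows Hy3 over Hy5 (median correlation 0.969 over 191 probes), and its column medians were 0.809, 0.886 and 0.807 for EAU and 0.879, 0.851 and 0.769 for naive. In 36 rows, miR-342-5p among them, the ratio exceeded 32 on every array, and these were left out. All columns of sample values were assigned to samples by name.

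Mean spot signals were corrected for median local background by normexp with an offset of 50, and loess was applied within arrays with control spots at weight 0 (limma 3.58.1, R 4.3.3). Outlier-marked spots were dropped (0 of the 216 member spots), and each probe's log2 values were averaged over its spots. Probes with a value on at least 2 arrays per group entered the fit, made by lmFit and eBayes without covariates. Tests were two-sided, with Benjamini-Hochberg adjustment over 595 mouse probes and a threshold of 0.05. The fit was tested on simulated log2 ratios with known differences, larger than those of the members. Background correction, normalization and the blank level were not part of that test. The number of arrays limits the precision.

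All 9 members are named, with companions, same-numbered probes of other species, up to 6 of the other leukocyte miRNAs by smallest p, and the 3 nearest patterns. Other leukocyte miRNAs that passed in the sample channel are named as well. The members and lists were chosen with earlier results of these data known. Alternatives covered background, normalization, channel, filter, spots, replicate block and each array left out.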

Additional observations from a re-analysis of the deposited data

How the results depend on the processing

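The number of members past the threshold was 0 in the reported fit. It was 1 with an offset of 16, 2 with no offset, and 1 each with the processed signals, the sample channel after quantile normalization and the deposited table. All these calls were higher in EAU. The same settings called 4.87%, 2.69%, 7.06%, 5.21% and 7.14% of all mouse probes higher, in that order. The median difference of the members was 0.105 with offset 16, 0.314 with no offset, 0.204 with median centring, 0.273 with no normalization, 0.104 with loess on spots above the blanks, 0.381 with processed signals, 0.258 and 0.158 in the sample channel (quantile, then loess and Aquantile), 0.442 in the deposited table and -0.015 over the 3 members above the blanks on at least 3 arrays. It ranged from 0.0148 to 0.0772 on leaving out 1 array, with 0 members past. With a blank level at 2 median absolute deviations, 6.33 members per EAU array and 3 per naive array lay above it, and all mouse probes were not counted at that level.

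The reported 77 calls over all mouse probes (25 higher and 52 lower) became 92 with offset 16, 26 with no offset (16 higher, 10 lower), 2 with median centring (1 and 1), 25 with no normalization (21 and 4), and 33 with loess above the blanks (18 and 15). They were 72 with processed signals (42 and 30), 61 and 63 in the sample channel (31 and 30, then 29 and 34), 82 in the deposited table (42 and 40), 47 with the median over spots (21 and 26), and 113 over named probes of any species (39 and 74). Leaving out 1 array gave 7 to 77 calls, 2 to 25 higher and 5 to 54 lower: 7 without EAU replicate 3, and 9, 15 and 36 without naive replicate 1, 2 and 3.

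Same-numbered EAU and naive arrays had correlations of 0.192, -0.152 and 0.290 of their deviations, and differently numbered ones from -0.444 to 0.300. These values do not settle whether the numbers pair samples. The labels do not say that they do, so the reported fit takes no pairing. With the replicate block 2 probes passed, 0 higher and 2 lower, and 0 members.

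Signs turned for 5 members. For miR-146a they did so without EAU replicate 1 (-0.037), EAU replicate 2 (-0.018) and naive replicate 2 (-0.011). For miR-223 it was without naive replicate 3 (-0.14). For miR-150 it was with median centring (0.31), no normalization (0.38) and the sample channel (0.26 and 0.14). For miR-342-3p it was with no offset (0.034), no normalization (0.052), loess above the blanks (0.035) and without naive replicate 2 (0.0046; -0.029 to 0.0046 over the arrays left out). For miR-132 it was with loess above the blanks (0.042), the median over spots (0.011), and without EAU replicate 3 (0.0035), naive replicate 2 (0.0033) or naive replicate 3 (0.0073; -0.016 to 0.0073 over the arrays left out). None of these values passed, and the cause was not tested. MiR-155, miR-146b and miR-147 kept a positive sign in all settings run. MiR-342-5p did so in all settings that gave it a value, but its ratios in the deposited table, left out of the fit, were lower in EAU. The 2 alternatives on the first spot, and those that leave out an array with no offset, were chosen after seeing the data. Signal near the blanks limits 7 of the 9 members.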
